A study of Homo sapiens with 52 samples.

Results

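The regulators described here are 10 genes of the E2F, RB and DREAM network, picked by their symbols from the 59408 genes of the deposited tables. They are the E2F transcription factors E2F1, E2F2, E2F7 and E2F8, the transcription factors MYBL2 (B-MYB) and FOXM1, the retinoblastoma family RB1, RBL1 (p107) and RBL2 (p130), and LIN9, a subunit of the MuvB core. Reads were found for 9 of the 10, and all 9 passed the filter on low values that left 15403 genes to test. E2F2 was listed at 0 in every table, so it has no level, ratio or test here.

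The samples were cultures of WI-38, a fibroblast strain from normal human lung that stops dividing after enough passages. Cells received SDS (0.009%, a detergent that injures the cell surface), KCl (75 mM, which depolarizes the membrane so that calcium flows in) or the DNA-damaging drug doxorubicin (DXR, 250 nM) for 24 h and were collected on day 0, when the agent was washed away, then daily to day 4, and on days 6, 8 and 16. The senescent states that follow are called PMD-Sen after SDS, Ca2+-Sen after KCl and DDR-Sen after DXR. Cells in replicative senescence (RS) had been passaged to a population doubling level of 52, and the untreated cells, at a level of 32 to 46, had received none of the 3 agents. The labels name 26 groups with 2 libraries each, 52 in all, from cells of 1 strain, so the results speak for this strain only. The groups address how the expression of these regulators moved as cells entered senescence by each route.

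In dividing cells, E2F1, E2F2 and E2F3 drive the genes of DNA replication once cyclin-dependent kinases have released them from RB1. The atypical factors E2F7 and E2F8, which bind DNA without a DP partner, repress the same genes later in the cycle. The MuvB core, to which LIN9 belongs, joins p130 or p107 and E2F4 or E2F5 in the DREAM complex, which silences cell cycle genes in resting cells, and joins B-MYB and then FOXM1 to switch on the genes of mitosis. MYBL2, E2F1 and RBL1 are themselves E2F targets, and loss of the activating part of this network is a hallmark of senescent fibroblasts. All of this is background and not a result of these libraries.

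On GRCh38.p14 the members lie at chr20:33675477-33686385 (E2F1), chr1:23505212-23531233 (E2F2), chr12:77021251-77065569 (E2F7), chr11:19224063-19241655 (E2F8), chr20:43667114-43716482 (MYBL2), chr12:2857680-2877174 (FOXM1), chr13:48303751-48481890 (RB1), chr20:36996349-37095997 (RBL1), chr16:53434471-53491648 (RBL2) and chr1:226231149-226309767 (LIN9), and the values below count reads over whole genes. Promoter sequences are shown because several members are known targets of the factors they encode, and they were searched for 4 E2F words (TTTGGCGC, TTTCCCGC, TTTGCCGC and TTTCGCGC) and for the CHR words TTTGAA and TTCGAA on both strands. The runs come from RefSeq on GRCh38.p14 and hold the 250 bases before the transcript start, 5′ to 3′ in the direction of the gene, with the words found in capitals. They are E2F1 at chr20:33686386-33686635 (minus strand), RBL1 at chr20:37095998-37096247 (minus strand), LIN9 at chr1:226309165-226309414 (minus strand, 1 of its 3 annotated starts) and MYBL2 at chr20:43666864-43667113 (plus strand).
E2F1: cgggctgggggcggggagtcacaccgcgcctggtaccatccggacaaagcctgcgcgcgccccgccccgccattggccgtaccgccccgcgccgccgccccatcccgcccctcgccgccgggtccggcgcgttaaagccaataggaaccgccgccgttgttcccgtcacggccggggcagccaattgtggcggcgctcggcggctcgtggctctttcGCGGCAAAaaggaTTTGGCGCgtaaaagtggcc
RBL1: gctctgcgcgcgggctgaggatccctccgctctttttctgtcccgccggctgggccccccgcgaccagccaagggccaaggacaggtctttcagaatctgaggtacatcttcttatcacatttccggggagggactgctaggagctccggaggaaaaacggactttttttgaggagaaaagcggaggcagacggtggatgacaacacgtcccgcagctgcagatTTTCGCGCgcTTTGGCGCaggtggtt
LIN9: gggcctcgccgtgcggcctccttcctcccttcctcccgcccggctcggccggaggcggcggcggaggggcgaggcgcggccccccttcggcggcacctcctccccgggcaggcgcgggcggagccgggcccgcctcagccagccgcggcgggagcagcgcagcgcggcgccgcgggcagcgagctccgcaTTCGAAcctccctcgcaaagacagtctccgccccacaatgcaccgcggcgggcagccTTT
MYBL2: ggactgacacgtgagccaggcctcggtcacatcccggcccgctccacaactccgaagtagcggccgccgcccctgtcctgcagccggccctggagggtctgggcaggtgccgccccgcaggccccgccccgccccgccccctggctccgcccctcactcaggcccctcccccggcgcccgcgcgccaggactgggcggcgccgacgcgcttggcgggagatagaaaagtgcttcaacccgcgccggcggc

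The E2F1 promoter held TTTGGCGC 20 bases before the start and TTTGCCGC on the opposite strand 33 bases before it. RBL1 held TTTCGCGC at 26 and TTTGGCGC at 16 bases before its start. LIN9 held TTCGAA 60 bases before this start and a TTTGAA that begins 3 bases before it and runs past it. None of these words lay in the MYBL2 run, in the E2F7 run or at the other 2 LIN9 starts, which says only that these letters are not in these windows. In a window of 300 bases that reaches past the start, an E2F word was present in 3.31% of 35116 promoters and a CHR word in 16.35%. E2F2 held TTTGGCGC 42 bases before its start, and 1 of the 2 starts of RBL2 had TTTGAA 25 bases after it. The promoters of E2F8, FOXM1 and the main start of RB1 were not analysed here.

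Levels are normalized read counts, that is, whole reads of a library divided by its size factor, and were recovered from the digits of the deposited means. In units of 1e6 reads, 8.70 to 37.98 were recovered per library (median 18.37), with 12.54 and 10.27 in the untreated pair, which enters all 25 comparisons with treated cells or RS. The lowest total, DXR day 1 library 2, leaves out 3092 genes whose reads could not be split between the libraries of that day. Its size factor was 0.859, near the 0.863 of DXR day 2 library 2, which had 17.67. Each group was compared by limma with read-depth weights in 1 fit over all 26 groups, and a gene was called at a Benjamini-Hochberg adjusted p under 0.05 over all tested genes. Fold changes are on the log2 scale of normalized reads plus a small constant of 0.5 reads, errors are standard errors (SE), and library 1 of a pair is the one with the larger size factor. For E2F7, RB1 and RBL2 on DXR day 1 only 1 pooled value of both libraries could be recovered, and the fit uses it in place of 2 values. Neither library of that day could be left out for these genes. The p-values rest on 1 spread per gene between the libraries of a group, pooled over all 26 groups. The groups differed in spread, with a median absolute log2 difference between libraries of 0.245 in RS, 0.204 on SDS day 16 and 0.097 on KCl day 16. P-values for RS or SDS day 16 may thus understate the spread of those groups. In bulk RNA fewer cells of a type and less RNA per cell cannot be told apart. Of 10 fibroblast markers, 8 (COL1A1, COL1A2, COL3A1, COL6A1, VIM, THY1, DCN and FN1) lay above the range in which reads were recovered, with authors' means of 8655 to 332793, and PDGFRB and LUM were read in every library. Epithelial EPCAM and CDH1 stayed at or below 23.5 normalized reads, while the epithelial keratins KRT18 and KRT19 ran from 1179 to 4443 and from 263 to 2982. Of the endothelial markers CDH5 stayed at or below 3.48, VWF ran from 25 to 135 and PECAM1 from 0 to 163. The sum of these 3 was 44.4 to 54.5 in untreated cells, 59.8 to 139 in RS, 33.6 to 108 after SDS, 30.9 to 262 after KCl and 47.1 to 119 after DXR, and its part in the results was not tested. The sum of 4 leukocyte markers was 0 in both untreated libraries, 2.08 to 2.69 in RS, 0.839 to 10.1 after SDS, 0 to 8.12 after KCl and 16.5 to 43.0 after DXR.

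Against untreated cells, at least 6 of the 9 regulators were lower in every group but SDS day 1 (4), SDS day 2 (4) and KCl day 2 (3). Of 225 comparisons of a member with untreated cells, 162 were called lower and 11 higher, where 13.6% of all tested genes were lower and 11.9% higher. MYBL2 was lower in 25 of 25 comparisons, E2F1, E2F8 and FOXM1 in 24, RBL1 in 23 and LIN9 in 21. The members that rose at all were E2F7 (5 higher, 7 lower), RBL2 (5 higher, 3 lower) and RB1 (1 higher, 11 lower). By agent, 49 of 72 comparisons were lower after SDS, 50 after KCl and 56 after DXR, beside 13.2%, 11.7% and 14.7% of all tested genes. Higher calls were 4 after SDS, 3 after KCl and 3 after DXR, beside 12.8%, 9.27% and 12.4%. In either direction DXR had 59 of 72 called, beside 27.1% of all tested genes. In RS 8 of 9 members were called, 7 of them lower, where 44.5% of all tested genes were called. On SDS day 2, 5 of 9 were called (17.2%), with 1 of them, E2F7, higher (10.4%). Of the 173 calls, 140 held whichever library of the groups compared could be left out, which for RB1 on DXR day 1 was only an untreated one. The count of higher calls fell to 4 without untreated library 1 and to 7 without untreated library 2.

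**Figure D1:**
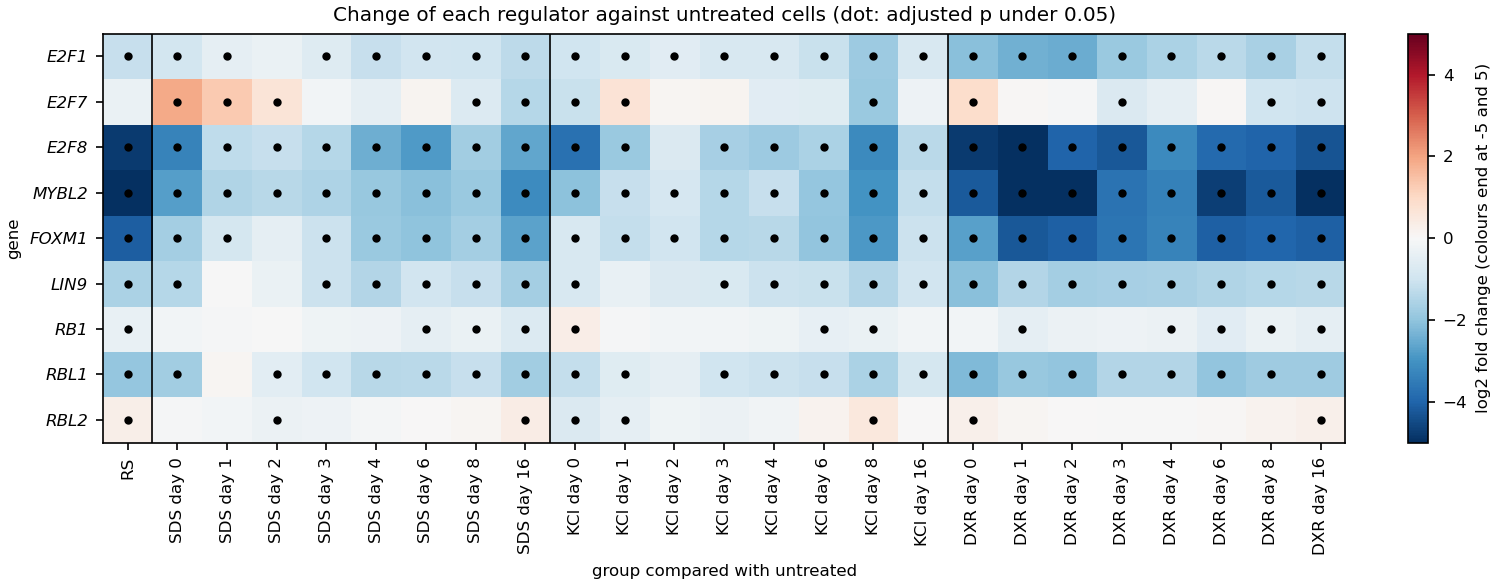
Log2 fold change of the 9 regulators with reads (rows) against untreated cells in RS and on each day after SDS, KCl and DXR (columns), with a dot where the adjusted p was under 0.05. The rows of E2F1, E2F8, MYBL2 and FOXM1 are below 0 in all columns, down to -6.87 for MYBL2 on DXR day 1, and E2F7 has dots above 0 on SDS days 0 to 2, KCl day 1 and DXR day 0.

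E2F1, the activator E2F, was lower in 24 of 25 groups and lowest after DXR. Untreated cells had 691 and 670 normalized reads. After SDS the levels were 347 and 380 on day 0, 481 and 519 on day 1, 576 and 509 on day 2, 276 and 350 on day 4, and 352 and 208 on day 16. Both libraries of every SDS day lay below both untreated libraries, with the smallest gap on day 2, the only day not called (log2 fold change -0.33 ± 0.13, adjusted p = 0.0923). After KCl they were 331 and 359 on day 0, 454 and 478 on day 2, 195 and 190 on day 8 and 376 and 402 on day 16, and all 8 days were called lower. After DXR they were 174 and 147 on day 0, 118 and 143 on day 1, 125 and 121 on day 2, 245 and 213 on day 4, and 338 and 250 on day 16. The lowest E2F1 level of the series was thus on DXR day 2, 18.0% of untreated (log2 fold change -2.47 ± 0.20, adjusted p = 8.66e-11), and by day 16 it stood at 43.2% (-1.21 ± 0.15, adjusted p = 1.69e-07). RS gave 331 and 284 (-1.14 ± 0.14, adjusted p = 8.09e-08). The call on SDS day 1 was lost without either untreated library or SDS day 1 library 1 (-0.48 to -0.39), and that on KCl day 2 without any of its 4 libraries (-0.59 to -0.51).

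E2F7, the atypical repressor E2F that p53 can induce, was the member that rose most. It was read at 1245 and 1182 in untreated cells and at 4221 and 4897 on SDS day 0, 3.74-fold higher (log2 fold change 1.90 ± 0.22, adjusted p = 2.28e-08). On the following SDS days the levels were 2689 and 3347 (day 1), 2150 and 1669 (day 2), 1012 and 1248 (day 3), 843 and 959 (day 4), 1207 and 1521 (day 6), 621 and 971 (day 8) and 570 and 354 (day 16). The SDS series therefore ran from above all untreated libraries to below them, and day 16 was called lower (-1.42 ± 0.26, adjusted p = 7.84e-05). On DXR day 0 the level was 2237 and 2179 (0.86 ± 0.22, adjusted p = 0.00268), on day 1 the pooled value was 1264, and on day 16 the libraries held 663 and 514 (-1.05 ± 0.25, adjusted p = 0.00127). KCl went the other way on day 0, with 549 and 587 (-1.10 ± 0.25, adjusted p = 3.36e-04), then gave 2036 and 1906 on day 1, 1302 and 1320 on day 2, 313 and 354 on day 8, its lowest level in the series, and 934 and 1091 on day 16. Both KCl day 1 libraries lay above the untreated ones, but that call (0.70 ± 0.23, adjusted p = 0.0424) was lost without any of the 4 libraries, at 0.65 to 0.74. The calls on SDS day 2 and day 8 and on DXR day 3 were likewise lost without either untreated library or 1 treated library, at 0.46 to 0.68, -0.74 to -0.32 and -0.76 to -0.50. In RS the libraries split, 1259 and 717, and no change was called (-0.34 ± 0.23, adjusted p = 0.242).

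E2F8, the other atypical E2F, had few reads and was lower in 24 of 25 groups. It overlaps the antisense RNA CSRP3-AS1 in the RefSeq annotation. The untreated libraries themselves differed, 107 and 64.5 normalized reads. SDS day 0 gave 7.49 and 8.24 (log2 fold change -3.34 ± 0.55, adjusted p = 6.80e-06), SDS day 2 gave 35.9 and 40.9, and SDS day 16 gave 28.5 and 6.19. KCl day 0 gave 6.69 and 5.15 (-3.74 ± 0.51, adjusted p = 2.12e-07), KCl day 2 gave 49.8 and 54.5, the only group not called (-0.71 ± 0.32, adjusted p = 0.245), and KCl day 8 gave 15.2 and 4.86. All libraries outside the untreated pair lay below its lower member. After DXR no library exceeded 9.32, the level of 1 library on day 4. On DXR day 1 both libraries together held 2 reads, which is 0.966% of the untreated level with an exact 95% interval of 0.115% to 3.58% that covers counting error only. RS gave 4.85 and 1.39 (-4.78 ± 0.60, adjusted p = 9.24e-08). Of the 24 calls, 16 held whichever library was left out. The other 8 were on SDS days 1, 2 and 3 and KCl days 1, 3, 4, 6 and 16. Each was lost without untreated library 1, some of them also without a treated library, with log2 fold changes of -1.51 to -0.77.

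**Figure D2:**
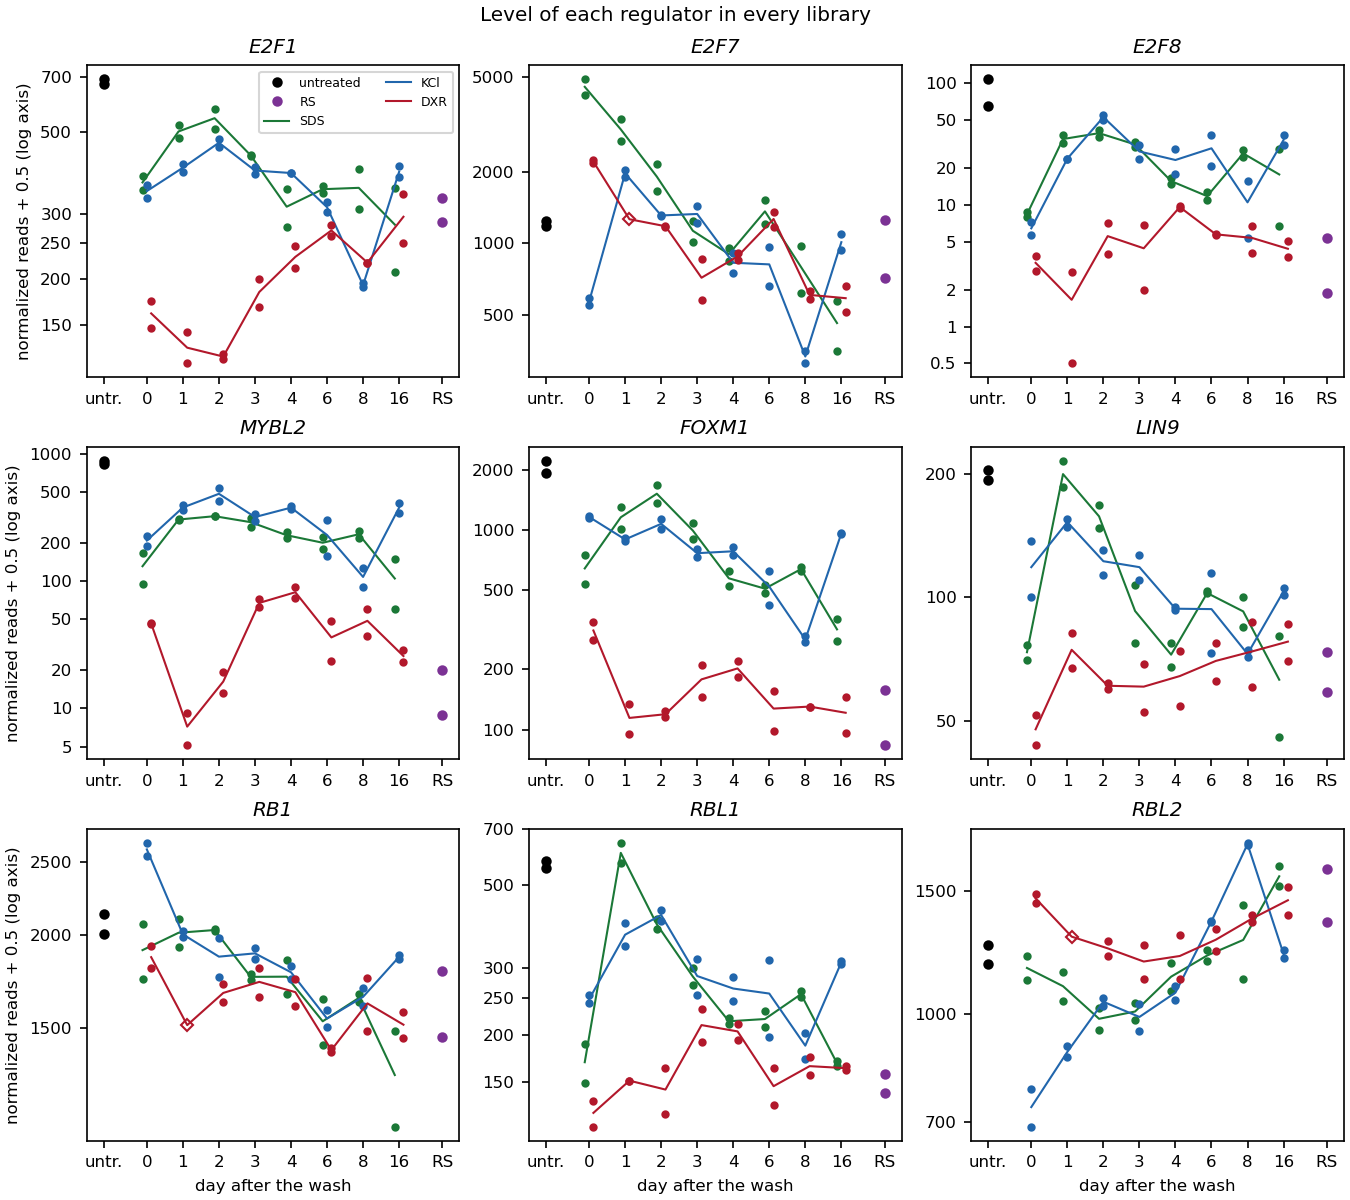
Normalized read count plus 0.5 (log axis) of each regulator in every library against the day after the wash, with untreated cells at the left and RS at the right of each panel; filled points are libraries, lines join the means of SDS (green), KCl (blue) and DXR (red), and open diamonds are pooled values of 2 libraries. MYBL2 and FOXM1 after DXR run far below their SDS and KCl lines on every day, E2F7 peaks on SDS day 0 at 4221 and 4897, and RBL2 climbs to 1746 and 1759 on KCl day 8.

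MYBL2, which activates mitotic genes with MuvB, had the lowest single log2 fold change of the network, -6.87, where the lowest of E2F8 was -6.56. Over the 25 comparisons with untreated cells E2F8, with its few reads, had the lower median, -2.84 against -2.09. MYBL2 had 872 and 825 normalized reads in untreated cells and 19.4 and 8.34 in RS, 62.3-fold lower (log2 fold change -5.96 ± 0.48, adjusted p = 1.52e-11). DXR took it to 46.2 and 45.3 on day 0 and to 8.68 and 4.65 on day 1, its lowest level (-6.87 ± 0.69, adjusted p = 3.38e-09), after which it held between 12.7 and 88.6 from day 2 to day 16. The DXR and RS libraries all lay below every SDS and KCl library except that SDS day 16 reached down to 59.8 in 1 library, a level that several DXR libraries exceeded. SDS gave 94.9 and 166 on day 0, 302 and 304 on day 1, 322 and 322 on day 2, 248 and 215 on day 8 and 148 and 59.8 on day 16 (-3.14 ± 0.28, adjusted p = 3.46e-10). KCl gave 189 and 225 on day 0, 426 and 540 on day 2, 125 and 89.4 on day 8 (-2.99 ± 0.26, adjusted p = 2.76e-10) and 408 and 344 on day 16. The smallest fall was on KCl day 2 (-0.83 ± 0.19, adjusted p = 0.0123), and this call was the 1 of 25 that was lost when a single library was left out (either untreated library or KCl day 2 library 1, at -0.87 to -0.65).

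FOXM1, the forkhead factor of the mitotic genes, broadly followed MYBL2 at a higher level. On KCl day 0 they parted, with MYBL2 at 24.4% of untreated and FOXM1 at 56.3%. The untreated libraries held 1913 and 2203 normalized reads of FOXM1. SDS gave 538 and 743 on day 0, 1013 and 1295 on day 1, 1666 and 1363 on day 2, 525 and 618 on day 4 and 358 and 276 on day 16. SDS day 2 was the group closest to untreated cells (log2 fold change -0.44 ± 0.16, adjusted p = 0.0501, not called). KCl gave 1149 and 1169 on day 0 (-0.82 ± 0.16, adjusted p = 5.79e-05), 1011 and 1130 on day 2, 292 and 273 on day 8 and 965 and 953 on day 16. DXR gave 346 and 280 on day 0, 94.2 and 134 on day 1 (-4.24 ± 0.26, adjusted p = 3.03e-13), 220 and 184 on day 4 and 145 and 96.3 on day 16, and RS gave 158 and 83.4 (-4.11 ± 0.23, adjusted p = 9.26e-15). From day 1 on, no DXR library exceeded 220, below every SDS and KCl library of the series. The call on KCl day 2 was lost without KCl day 2 library 1, at -0.86. FOXM1 overlaps ITFG2 and RHNO1 in the RefSeq annotation, and whether the counting used strand is not given in the sources used here.

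LIN9, the MuvB subunit that the DREAM and B-MYB complexes share, was lower in 21 groups, and less deeply than MYBL2 or FOXM1. Untreated cells had 204 and 192 normalized reads. SDS gave 76.1 and 70.0 on day 0 (log2 fold change -1.43 ± 0.24, adjusted p = 1.06e-05), then 185 and 214 on day 1, 147 and 167 on day 2, 67.3 and 76.8 on day 4 and 79.9 and 45.4 on day 16. The SDS day 1 libraries enclosed the untreated pair (-0.03 ± 0.19, adjusted p = 0.944). KCl gave 99.9 and 137 on day 0, 155 and 148 on day 1, 71.0 and 73.9 on day 8 and 105 and 101 on day 16, and its days 1 and 2 were not called (adjusted p = 0.209 and 0.0526). DXR gave 43.3 and 51.3 on day 0, the lowest level of the series (-2.08 ± 0.23, adjusted p = 8.11e-09), and 52.1 to 86.7 afterwards, and RS gave 73.3 and 58.4 (-1.58 ± 0.21, adjusted p = 2.45e-07). The calls on KCl days 0, 3 and 16 were lost without certain libraries: KCl day 0 library 1 (-0.53), any of the 4 on day 3 (-0.85 to -0.66) and untreated library 1 on day 16 (-0.90).

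The 3 pocket proteins moved in different ways. RB1, the retinoblastoma protein, stayed within a factor of 2.01 between its lowest and highest group. It had 2006 and 2132 normalized reads in untreated cells, 2655 and 2548 on KCl day 0 (log2 fold change 0.33 ± 0.10, adjusted p = 0.00709), 1488 and 1106 on SDS day 16 (-0.68 ± 0.11, adjusted p = 1.09e-05), 1454 and 1576 on DXR day 16 (-0.45 ± 0.11, adjusted p = 0.00125) and 1457 and 1787 in RS (-0.36 ± 0.11, adjusted p = 0.00594). Only KCl day 0 lay above both untreated libraries in both of its own. Of its 12 calls, 4 held whichever library could be left out, the falls on SDS day 16 and on DXR days 1, 6 and 16. On DXR day 1, with its pooled value, only the untreated libraries could be left out. The other falls, on SDS days 6 and 8, KCl days 6 and 8 and DXR days 4 and 8, were lost without a library at -0.38 to -0.24. The KCl day 0 rise was lost without untreated library 1 or KCl day 0 library 1 (0.29 to 0.30), and the RS fall without untreated library 2 or RS library 1 (-0.32 to -0.21). RB1 overlaps LPAR6, which lies in one of its introns.

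RBL1 (p107), an E2F target, fell in 23 of 25 groups. Untreated libraries held 553 and 577 normalized reads, and SDS day 0 held 149 and 189 (log2 fold change -1.75 ± 0.17, adjusted p = 6.22e-10). A day later the SDS libraries held 568 and 644, the first between the untreated libraries and the second above them (0.08 ± 0.13, adjusted p = 0.696), and the level then went to 404 and 381 on day 2, 270 and 300 on day 3, and 165 and 170 on day 16. KCl gave 243 and 254 on day 0, 401 and 429 on day 2 (-0.45 ± 0.14, adjusted p = 0.0672, not called), 202 and 172 on day 8 and 314 and 308 on day 16. DXR gave 133 and 114 on day 0, its lowest group (-2.19 ± 0.16, adjusted p = 1.28e-12), 191 and 234 on day 3 and 161 and 165 on day 16, close to RS with 157 and 140 (-1.92 ± 0.15, adjusted p = 6.44e-12). No DXR or RS library exceeded 234. The call on SDS day 2 (-0.52 ± 0.13) was lost without untreated library 1, at -0.56.

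RBL2 (p130), the pocket protein of DREAM in resting cells, was called in the fewest groups, 8 of 25. Untreated cells had 1178 and 1253 normalized reads, KCl day 0 had 688 and 780 (log2 fold change -0.74 ± 0.10, adjusted p = 4.65e-07) and KCl day 1 had 897 and 866 (-0.46 ± 0.10, adjusted p = 0.00347). On KCl day 8 it reached 1746 and 1759, its highest group (0.53 ± 0.10, adjusted p = 8.83e-05), before 1234 and 1202 on day 16. The KCl series thus ran from below to above the untreated pair and back to it. SDS day 16 gave 1523 and 1628 (0.38 ± 0.10, adjusted p = 0.00346), DXR day 0 gave 1486 and 1442 (0.27 ± 0.10, adjusted p = 0.029), DXR day 16 gave 1522 and 1387 (0.26 ± 0.10, adjusted p = 0.0361) and RS gave 1353 and 1611 (0.28 ± 0.10, adjusted p = 0.0208). All 8 libraries of these groups lay above both untreated ones, yet the rises on SDS day 16, DXR day 0, DXR day 16 and RS were each lost without untreated library 1, and all but the first also without other libraries, with log2 fold changes of 0.33, 0.22 to 0.31, 0.19 to 0.30 and 0.16 to 0.23. The fall on SDS day 2 (-0.31 ± 0.10, adjusted p = 0.0341) was lost without any of its 4 libraries (-0.36 to -0.25). The KCl calls on days 0, 1 and 8 held whichever library was left out. RBL2 overlaps AKTIP in the annotation.

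Per kilobase of exon (GENCODE gene models), RNA of p130 exceeded that of p107 in every library with its own values. The ratio of RBL2 to RBL1 was 1.73 and 1.77 in the untreated libraries, 7.0 and 9.38 in RS, 9.06 and 10.3 on DXR day 0, 7.70 and 6.85 on DXR day 16 and 7.49 and 7.78 on SDS day 16. It dropped from 6.11 and 5.19 on SDS day 0 to 1.64 and 1.32 on SDS day 1, below the untreated pair, and on KCl it moved from 2.31 and 2.5 on day 0 to 7.03 and 8.31 on day 8 and 3.19 and 3.17 on day 16. The ratio of E2F7 to E2F1, repressor to activator, was 0.716 and 0.701 in untreated cells, 4.83 and 5.11 on SDS day 0, 5.09 and 5.88 on DXR day 0 and 0.658 and 0.650 on KCl day 0. By day 16 it was 0.644 and 0.674 after SDS, 0.986 and 1.08 after KCl and 0.779 and 0.815 after DXR, and RS had 1.51 and 1.00. These ratios are descriptions of each library and were not tested as such.

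**Figure D3:**
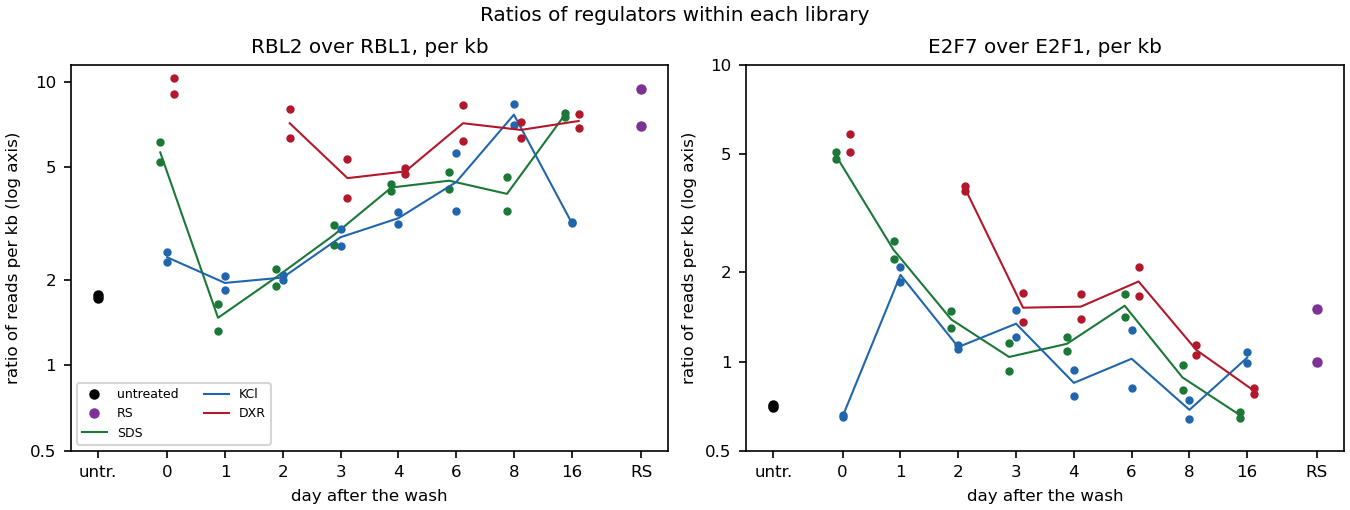
Ratio of reads per kb (log axis) of RBL2 to RBL1 (left) and of E2F7 to E2F1 (right) within each library, against the day after the wash, with untreated cells and RS at the ends; points are libraries and lines join the geometric means of SDS (green), KCl (blue) and DXR (red), with DXR day 1 left out because it has pooled values. On day 16 the left panel ends at 7.49 and 7.78 for SDS, 7.70 and 6.85 for DXR and 3.19 and 3.17 for KCl, and on day 0 the right panel starts at 4.83 and 5.11 for SDS, 5.09 and 5.88 for DXR and 0.658 and 0.650 for KCl.

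Among the members, the order of levels per kilobase in untreated cells was FOXM1 (390 and 450 normalized reads per kb), RB1 (311 and 330), MYBL2 (314 and 297), E2F1 (276 and 268), E2F7 (198 and 188), RBL2 (161 and 171), RBL1 (92.9 and 96.9), LIN9 (45.9 and 43.2) and E2F8 (25.8 and 15.6). The libraries of RB1 and MYBL2 overlapped, and all other neighbours were apart in both libraries. In RS the order by group mean was led by RB1 (251), RBL2 (202), E2F7 (157) and E2F1 (123), and the last were FOXM1 and RBL1 (24.7 and 24.9), LIN9 (14.8), MYBL2 (4.99) and E2F8 (0.753). FOXM1 thus went from the head of the order to beside RBL1, and MYBL2 to next to last. The order of FOXM1 and RBL1 in RS is not resolved, since the FOXM1 libraries held 158 and 83.4 normalized reads. Nor is the rank of E2F7 beside RBL2 and E2F1, since the E2F7 libraries held 1259 and 717 normalized reads in RS. Across all 26 groups MYBL2 spanned a range of 127-fold between group means, E2F8 73.9-fold, FOXM1 18.1-fold, E2F7 13.6-fold, E2F1 5.53-fold, RBL1 4.89-fold, LIN9 4.21-fold, RBL2 2.39-fold and RB1 2.01-fold.

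The comparison of agents on the same day asks whether the routes into senescence differ in these regulators. Summed over the 8 days, more member comparisons were called between DXR and either other agent than between SDS and KCl. This did not hold on each day. On day 16 only MYBL2 and FOXM1 were called between SDS and DXR (4.64% of all tested genes). That day 1 member was higher and 7 lower with SDS than with KCl (22.6%), and 6 were higher and 1 lower with KCl than with DXR (27.0%). Of 72 member comparisons, 36 were higher after SDS than after DXR and 2 lower (9.01% and 6.99% of all tested genes), and 42 were higher after KCl than after DXR and 5 lower (10.2% and 9.70%). Between SDS and KCl, 13 were higher and 14 lower (9.15% and 7.87%). Over the 3 pairs of agents 91 comparisons were higher and 21 lower for the agent named first, beside 9.44% and 8.19% of all tested genes. In either direction 27 were called between SDS and KCl (17.0%) and 47 between KCl and DXR (19.9%). MYBL2 and FOXM1 differed between SDS and DXR and between KCl and DXR on all 8 days. The largest gaps were on day 1 for MYBL2, 41.9-fold above DXR with SDS (log2 difference 5.39 ± 0.69, adjusted p = 3.38e-07) and 52.4-fold with KCl (5.71 ± 0.69, adjusted p = 2.01e-07), and on day 2 for FOXM1, 12.6-fold with SDS (3.66 ± 0.27, adjusted p = 4.05e-11). On day 16 MYBL2 was 3.75-fold above DXR with SDS (1.91 ± 0.49, adjusted p = 0.0235), a call lost without SDS day 16 library 1 or either DXR library (1.23 to 2.07), and 14.6-fold with KCl (3.86 ± 0.45, adjusted p = 1.73e-07). Other MYBL2 calls against DXR that were lost without a library were SDS on day 0 (1.05), day 4 (1.36 to 1.62) and day 6 (2.04 to 3.07) and KCl on day 6 (2.19) and day 8 (0.82 to 1.55), and those of FOXM1 were SDS on day 6 (1.69) and day 16 (1.12) and KCl on day 8 (1.12). E2F1 was higher than with DXR on days 0 to 3 after SDS (4.42-fold on day 2, 2.14 ± 0.19, adjusted p = 9.19e-10) and on days 0 to 4 after KCl. The call on KCl day 4 was lost without KCl library 1 or DXR library 2 (0.66 to 0.75). The leukocyte marker sum, 16.5 to 43.0 normalized reads in the DXR libraries and at most 10.1 in all others, moved with these differences, and its part in them was not tested.

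SDS and KCl differed in the most members on day 0 and on days 8 and 16. On day 0 E2F7 was 8.04-fold higher with SDS than with KCl (log2 difference 3.01 ± 0.22, adjusted p = 4.56e-13), and RBL2 was 1.60-fold higher (0.68 ± 0.10, adjusted p = 7.91e-07). MYBL2, FOXM1, RBL1, LIN9 and RB1 were lower with SDS that day, by a log2 difference of -0.88 ± 0.18 in FOXM1 (adjusted p = 8.57e-05), and the calls of MYBL2, RBL1 and LIN9 were lost without a library (-0.60 to -0.28, -0.38 and -0.68 to -0.44). That background was large, since 63.5% of all tested genes differed between SDS and KCl on day 0. On day 1, 3 of 9 members were called, E2F7, RBL2 and RBL1, all higher with SDS (18.3% of all tested genes). On day 2 FOXM1 was higher with SDS and MYBL2 lower (13.5%). All of these but the RBL1 call were lost without certain libraries (E2F7 0.45 to 0.64, RBL2 0.24 to 0.35, FOXM1 0.35 to 0.58, MYBL2 -0.75 to -0.4). On days 3, 4 and 6 limma called 0 of 9 members between SDS and KCl, with 0, 3 and 2 at an unadjusted p under 0.05, 0 with a mean-variance trend on each day, and 0, 2 and 0 in a fit of only these groups, where 0.0260%, 0% and 0.0974% of all genes were called. On day 8, 6 members were higher with SDS and 1 lower (18.2%), and on day 16, 1 was higher and 7 lower (22.6%). The 6 were E2F1, E2F7, E2F8, MYBL2, FOXM1 and RBL1. The 7 were E2F1, E2F7, MYBL2, FOXM1, RBL1, LIN9 and RB1. Calls lost without a library were E2F7, E2F8, MYBL2 and RBL1 on day 8 and E2F1, E2F7, LIN9 and RB1 on day 16. On day 8 FOXM1 was 2.25-fold higher with SDS (1.17 ± 0.21, adjusted p = 3.97e-04), and on day 16 it was 3.03-fold higher with KCl (-1.60 ± 0.20, adjusted p = 2.57e-06). RBL2 was opposite on both days, -0.45 ± 0.09 (adjusted p = 0.00135) and 0.37 ± 0.09 (adjusted p = 0.00467), with both calls lost when the second SDS library of the day was left out (-0.29 and 0.32).

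**Figure D4:**
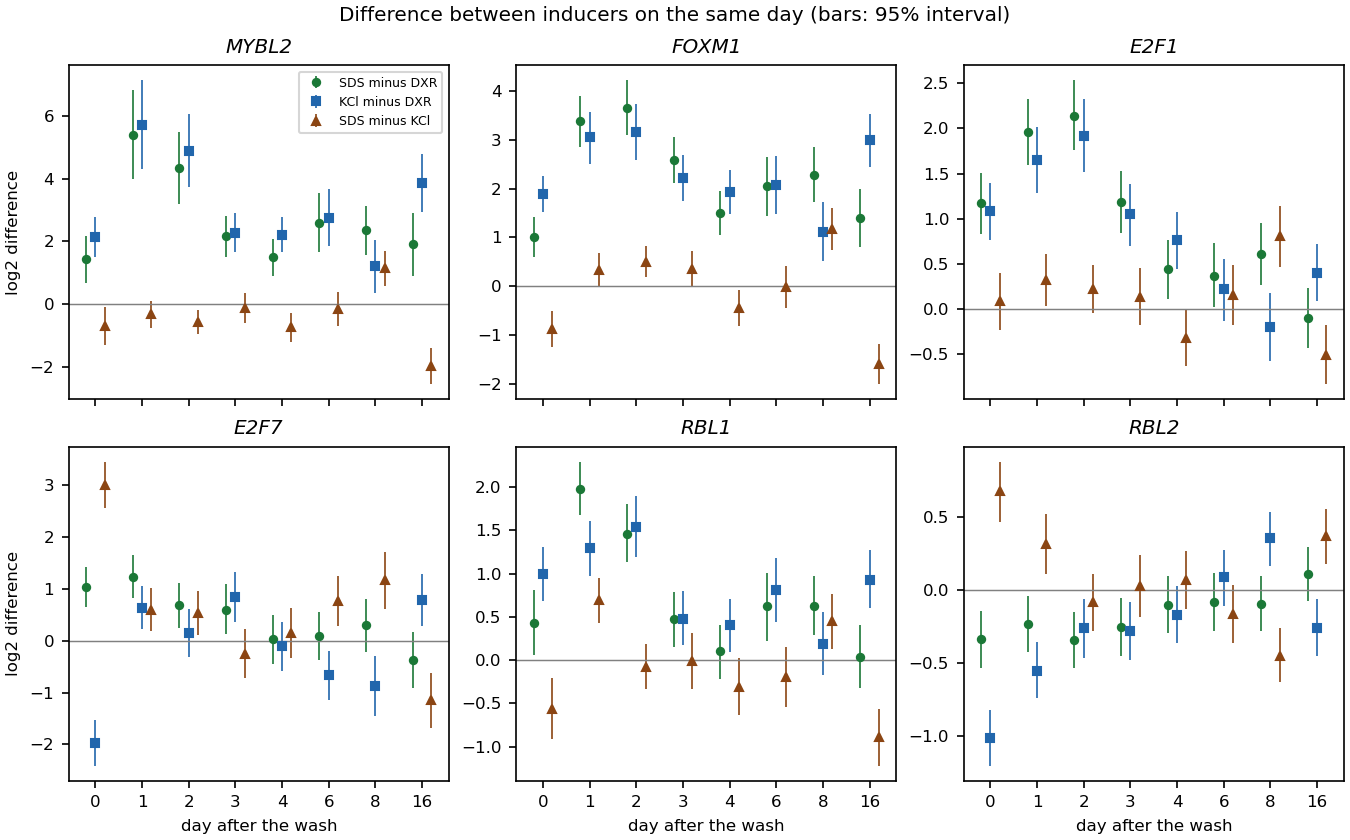
Log2 difference between agents on the same day for 6 regulators, with points at the estimate and bars for its 95% interval: SDS minus DXR (green circles), KCl minus DXR (blue squares) and SDS minus KCl (brown triangles), against the day after the wash. For MYBL2 and FOXM1 both differences from DXR stay above 0 on all 8 days, and E2F7 on day 0 spans from 3.01 for SDS minus KCl to -1.97 for KCl minus DXR.

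Steps between consecutive days show when the levels moved. Of 189 member steps, 20 were called higher and 24 lower, beside 5.68% and 5.30% of all tested genes. After SDS 7 steps were higher and 11 lower (6.09% and 5.84%). After KCl 13 were higher and 8 lower (8.35% and 7.72%). After DXR 5 were called (4.95%), 0 of them higher by limma (2.59%) and 5 lower (2.36%). From SDS day 0 to day 1, 6 members rose (RBL1 3.57-fold, log2 difference 1.84 ± 0.16, adjusted p = 5.42e-11; LIN9 1.41 ± 0.23; MYBL2 1.28 ± 0.29; FOXM1 0.84 ± 0.19; E2F8 2.06 ± 0.57; E2F1 0.45 ± 0.15) while E2F7 fell (-0.61 ± 0.20, adjusted p = 0.00921), in a step where 53.2% of all genes were called. The E2F1 and E2F7 steps were lost without 1 SDS library of either day, at 0.38 to 0.41 and -0.50 to -0.44. After KCl, E2F7 rose 3.49-fold from day 0 to day 1 (1.80 ± 0.23, adjusted p = 4.55e-08), with RBL1, MYBL2, E2F8, RBL2 and LIN9 also higher and RB1 and FOXM1 lower, in a step where 61.4% of all genes were called. Of these calls, RBL2 (0.18 to 0.25), LIN9 (0.15 to 0.46) and FOXM1 (-0.39 to -0.35) were lost without a library. From KCl day 6 to day 8, E2F1, E2F7, E2F8, MYBL2 and FOXM1 fell and RBL2 rose (E2F8, MYBL2 and FOXM1 not without KCl day 6 library 1 or KCl day 8 library 2, at -1.16 to -0.87, -0.82 to -0.55 and -0.82 to -0.56), and from day 8 to day 16 all of these went back: E2F8 by 1.86 ± 0.51 (adjusted p = 0.0083), MYBL2 by 1.81 ± 0.27 (adjusted p = 2.63e-05), FOXM1 by 1.76 ± 0.21 (adjusted p = 1.51e-06), E2F7 by 1.60 ± 0.27 (adjusted p = 9.32e-05) and E2F1 by 1.01 ± 0.17 (adjusted p = 7.72e-05), while RBL2 dropped by 0.52 (SE 0.09, adjusted p = 1.79e-04). The share of all genes called was 20.8% and 23.0% in these last steps. The E2F8 return was lost without KCl day 8 library 2 or KCl day 16 library 2, at 1.12 to 1.72. From SDS day 8 to day 16, MYBL2 (-1.29 ± 0.29), FOXM1 (-1.01 ± 0.21), RBL1 (-0.60 ± 0.16) and RB1 (-0.36 ± 0.11) fell and RBL2 rose (0.29 ± 0.09), and all 5 calls were lost without SDS day 16 library 2 (-0.67 for MYBL2, -0.83 for FOXM1). In that step 10.6% of all genes were called. After DXR, 4 of the 5 called steps were from day 0 to day 1, where 24.8% of all genes were called against 0% to 4.03% in the later DXR steps. From day 0 to day 1, MYBL2 (-2.67 ± 0.73, adjusted p = 0.00681), FOXM1 (-1.53 ± 0.27, adjusted p = 8.80e-05), E2F7 (-0.80 ± 0.20) and RB1 (-0.30 ± 0.10) fell. The later DXR steps gave 1 call, E2F7 from day 6 to day 8 (-1.06 ± 0.24, adjusted p = 0.0219). The MYBL2 step was lost without either DXR day 1 library (-3.14 to -2.35), the RB1 step without DXR day 0 library 2 (-0.25) and the late E2F7 step without any of its 4 libraries (-1.16 to -0.95). For E2F7 and RB1, with pooled values on day 1, no DXR day 1 library could be left out.

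On day 16 the cells were set beside RS. Of 27 member comparisons 11 were called, beside 19.8% of all tested genes. DXR cells had the fewest calls against RS. Limma called 0 of 9 members, with 1 (E2F7) at an unadjusted p under 0.05 and 0 under a mean-variance trend or in a fit of these groups alone. Of all genes 5.41% were called, and 0 of 9 lies near that share, so the count does not set the members apart. The intervals of the difference between DXR day 16 and RS were wide for the rarest genes, with a log2 95% interval of -0.36 to 2.20 for MYBL2 and -1.15 to 2.10 for E2F8, and narrow for RBL2 (-0.20 to 0.17) and RB1 (-0.30 to 0.12). FOXM1 had 145 and 96.3 normalized reads on DXR day 16 and 158 and 83.4 in RS, with an interval of -0.62 to 0.66. KCl day 16 lay above RS in MYBL2 (27.5-fold, 4.78 ± 0.49, adjusted p = 6.41e-09), E2F8 (10.9-fold, 3.45 ± 0.62, adjusted p = 6.19e-05), FOXM1 (8.06-fold, 3.01 ± 0.23, adjusted p = 5.37e-11), RBL1 (2.09-fold, 1.06 ± 0.15, adjusted p = 2.25e-06) and LIN9 (1.56-fold, 0.64 ± 0.22, adjusted p = 0.0227), and below it in RBL2 (-0.27 ± 0.09, adjusted p = 0.0227), where 31.0% of all genes were called. SDS day 16 lay above RS in MYBL2 (7.08-fold, 2.82 ± 0.52, adjusted p = 2.37e-04), E2F8 (2.20 ± 0.67, adjusted p = 0.0163) and FOXM1 (1.41 ± 0.26, adjusted p = 2.13e-04), and below it in E2F7 (-1.08 ± 0.25, adjusted p = 0.0021) and RB1 (-0.32 ± 0.10, adjusted p = 0.0246), beside 23.0% of all genes. Of these 11 calls, the 6 of MYBL2, FOXM1, RBL1 and of E2F8 after KCl held whichever library was left out. The others were lost without an RS or a day 16 library, at 0.49 to 0.67 for LIN9, -0.29 to -0.15 for RBL2, 1.10 to 1.49 for E2F8, -0.75 to -0.66 for E2F7 and -0.18 to -0.11 for RB1. The RS pair had 30.85 and 37.98 recovered reads in units of 1e6 and differed most between its libraries, with a median absolute log2 difference of 0.245 per gene.

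The genes that these factors control were read as lists. These lists were chosen with earlier results of these data known. Of 25 E2F targets of the G1/S transition, 576 of 625 comparisons with untreated cells were lower (92.2%, beside 13.6% of all tested genes), and of 24 tested targets of B-MYB and FOXM1 in mitosis, 540 of 600 were lower. The medians in RS were -2.23 and -4.68 on the log2 scale, those on DXR day 1 -2.27 and -5.37, those on SDS day 1 -0.46 for both lists, and those on KCl day 16 -0.92 and -1.17, while the median of all genes stayed within 0.05 of 0. The largest falls in RS were those of MCM10, a replication origin factor (507 and 389 normalized reads untreated, 14 and 9.73 in RS, log2 fold change -5.20 ± 0.40), RRM2, a ribonucleotide reductase subunit (-5.12 ± 0.43), NEK2, a centrosome kinase (-6.31 ± 0.77), and UBE2C, the ubiquitin-conjugating enzyme of the anaphase-promoting complex (-5.57 ± 0.49). Against RS on day 16, 43 of 75 comparisons of the G1/S list and 42 of 72 of the mitotic list were higher, beside 9.53% of all genes, and these came from SDS (18 of 25 and 18 of 24 genes) and KCl (25 of 25 and 24 of 24). Limma called 0 after DXR, with 3 and 0 at an unadjusted p under 0.05 and 1 and 0 with a mean-variance trend. PRC1, of the mitotic list, was below the filter.

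**Figure D5:**
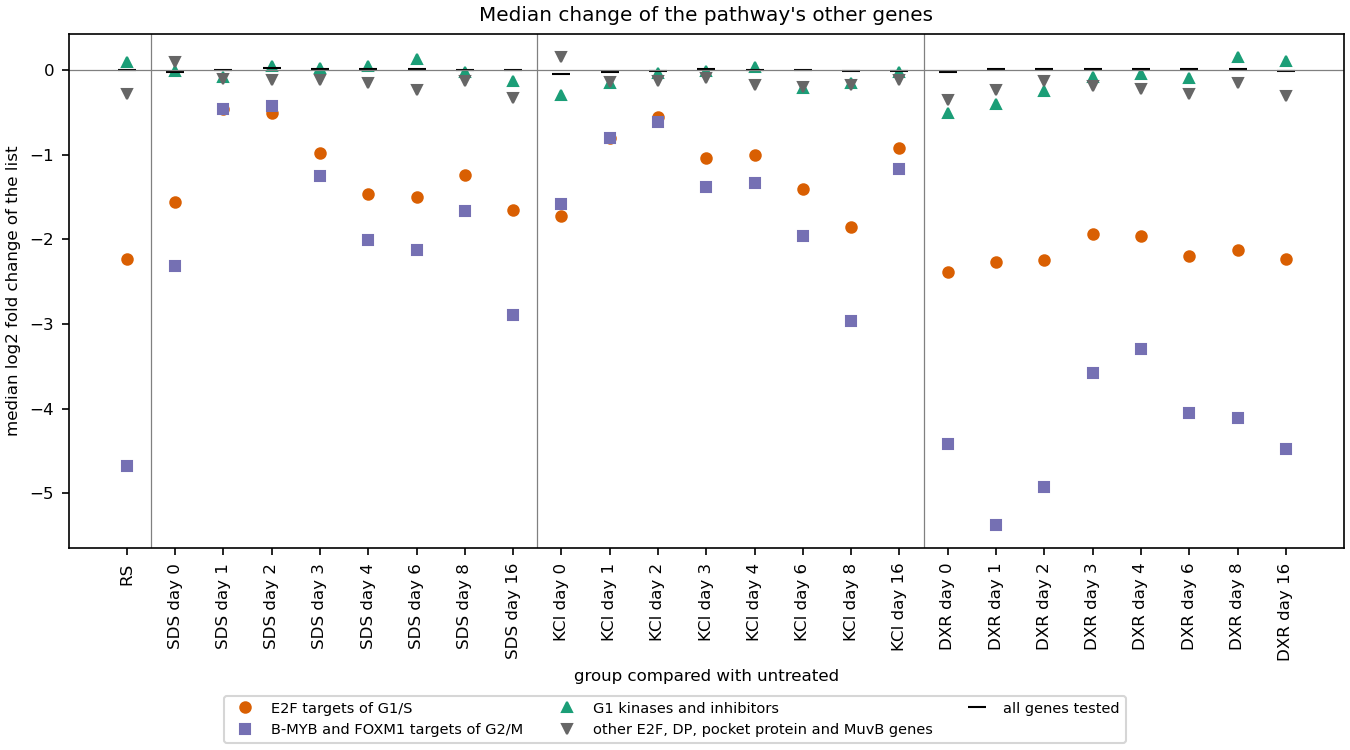
Median log2 fold change against untreated cells of E2F targets of G1/S (orange circles), B-MYB and FOXM1 targets of G2/M (purple squares), G1 kinases and inhibitors (green triangles up), other E2F, DP and MuvB genes with DYRK1A (grey triangles down) and all tested genes (black dashes), in RS and on each day after SDS, KCl and DXR. The mitotic targets reach -5.37 on DXR day 1 and -4.68 in RS, while the green triangles stay at -0.51 or above.

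The partners of the network moved less. The list of other E2F, DP and MuvB genes also held DYRK1A, which is not such a subunit. Of its 12 tested genes (13 with TFDP3, listed at 0), 104 of 300 comparisons with untreated cells were lower (34.7%) and 21 higher (7.0%), beside 13.6% and 11.9% of all tested genes. E2F4, the DREAM E2F, had 1933 and 1785 normalized reads in untreated cells and 1267 and 1560 in RS (log2 fold change -0.41 ± 0.09, adjusted p = 3.48e-04), E2F5 169 and 167 against 78.6 and 105 (-0.92 ± 0.18, adjusted p = 1.23e-04), and E2F3, an activator, 1191 and 1182 against 891 and 1198 (-0.21 ± 0.11, adjusted p = 0.125). E2F5 was lower in 7 groups and higher in 1, SDS day 0, with 237 and 265 (0.57 ± 0.18, adjusted p = 0.00797). The dimer partner TFDP1 was lower in 21 of 25 groups, at most by -0.70 on SDS day 0, whereas TFDP2 was higher in 12, from 846 and 756 in untreated cells to 1593 and 1680 on KCl day 0 (1.02), and lower in 1, with 573 and 487 on SDS day 0 (-0.60 ± 0.11, adjusted p = 1.95e-05). Among MuvB genes LIN54 was lower in 13 groups, RBBP4 in 10 and LIN52 in 3. LIN52 was higher in 2, with 549 and 527 on SDS day 0 (0.56 ± 0.14, adjusted p = 9.51e-04) and 457 and 468 on KCl day 0 (0.33 ± 0.13, adjusted p = 0.0286) against 377 and 353 in untreated cells. LIN37, read at only 51.0 and 54.5 in untreated cells, was higher in 3, most on SDS day 0 with 117 and 98.9 (1.02). Of 13 tested G1 kinases, cyclins and inhibitors, 109 of 325 comparisons were lower (33.5%) and 46 higher (14.2%), beside the same 13.6% and 11.9% of all tested genes. Cyclin E2 (CCNE2), an E2F target, was lower in 24 groups, with 247 and 129 in untreated cells and 26.9 and 16.7 in RS (-3.06 ± 0.35, adjusted p = 2.27e-08), while CCNE1 was lower in 3 and had 276 and 288 in RS against 244 and 276. CDKN2A, which encodes the CDK4 inhibitor p16 and from which ARF also comes, was higher in 15 groups, most in RS with 2258 and 2074 against 734 and 734 (1.56 ± 0.12, adjusted p = 1.04e-11), and lower on DXR day 0 (-0.50 ± 0.13, adjusted p = 0.00305). CDKN1B (p27) was lower in 12 groups and higher on KCl day 0 (0.25). CCND1 and CDKN1A lay above the range in which reads could be recovered and have no value here.

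By the correlation of group means on the log2 scale over the 26 groups, a description in which all points share the untreated scale and the 2 libraries of each group, MYBL2 was most like RRM2 (Pearson r = 0.986), MKI67 and IQGAP3, FOXM1 most like TROAP (0.978), SPAG5 and TACC3, and E2F8 most like CDK1 (0.957), DTL and HJURP. E2F1 was most like ORC6 (0.927), ARL6IP1 and CDCA5, RBL1 most like CIP2A (0.964), KIF11 and TMPO, and LIN9 most like RBL1 itself (0.935), RFC5 and CHTF18. E2F7 was closest to UTP25 (0.935), INSYN2B and UBASH3B, RB1 to CCP110 (0.936) and CEP135, and RBL2 to GAA (0.925), MANBA and ADGRL2. Within the network MYBL2 and FOXM1 had r = 0.93, MYBL2 and E2F8 0.92 and RBL1 and LIN9 0.94, whereas E2F7 had 0.14 with E2F8 and 0.27 with E2F1, and RBL2 had negative values with every other member, from -0.34 with E2F7 to -0.75 with RB1.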

How the data were processed

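RNA-seq libraries of WI-38 cells were analysed from 25 distinct tables of 59408 genes. The signal values used are means of normalized counts, deposited by the authors for each comparison with untreated cells; the submitters' processing notes name Trim Galore, HISAT2, HTSeq, featureCounts, DESeq2 and GRCh38/hg38, with no versions. The tables' other columns hold the authors' fold changes, standard errors, test statistics and p-values, which were not used. No further per-sample columns were present in the tables.

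The planned test needs reads per library. Whole reads of both libraries were recovered from the digits of each mean for 46049 genes; 13133 were 0 throughout, 205 had means above 20000 and 21 had too many solutions. The untreated pair was taken as the libraries shared by all tables. Tested on simulated tables, 812029 values came back with 0 wrong. Recovered reads were 8.70 to 37.98 per library in units of 1e6, without genes whose reads could not be split between 2 libraries, which were most frequent on DXR day 1.

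The 15403 genes whose mean reached 10 were fitted by limma 3.58.1 (R 4.3.3) with voom-style weights on log2 of reads plus 0.5 over size factors, with a mean per group over 52 libraries, and Benjamini-Hochberg adjusted within each comparison at 0.05. On data simulated for DXR day 16 against untreated cells (12226 genes, 200 changed), 30.5%, 55% and 83% of changes of 0.5, 1 and 2 on the log2 scale were recovered. No pair of libraries agreed within sampling noise (chi-square per gene 3.94 to 72.56). Recovery, ratios and figures used Python 3.11.15.

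All 10 members were named in every comparison, with set partner genes by value, the 2 genes of each target list with the largest fall in RS, and the 3 genes most correlated with each member, of which 1 is not reported here. CDKN1A and CCND1 lay above 20000. Members and lists were chosen with earlier results of these data known. Alternatives were library totals, other filters, a mean-variance trend, only the groups compared, a minimum fold and each library left out.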

Additional observations from a re-analysis of the deposited data

Results flagged for a closer look

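Each regulator below drew attention because its change differed between agents, by the test of the difference itself on the same day (limma, adjusted p under 0.05). Over all tested genes and the 8 days, 16.0% of comparisons were called between SDS and DXR, 17.0% between SDS and KCl and 19.9% between KCl and DXR, and a gene called on 2 of 8 days lies near that share. The 3 pairs of agents share libraries, and no explanation was weighed.

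MYBL2 and FOXM1 each differed between SDS and DXR on 8 of 8 days, between KCl and DXR on 8 and between SDS and KCl on 4, with MYBL2 higher than after DXR by 1.44 to 5.39 (SDS) and 1.21 to 5.71 (KCl) and FOXM1 by 1.01 to 3.66 and 1.12 to 3.16 on the log2 scale. E2F1 differed between SDS and DXR on 4 days, between SDS and KCl on 2 and between KCl and DXR on 5. For E2F7 these numbers were 3, 4 and 5, and its differences between KCl and DXR ran from -1.97 to 0.85, higher after KCl on 3 days and lower on 2. For E2F8 they were 4, 1 and 5.

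RBL1 differed on 4 days between SDS and DXR, on 4 between SDS and KCl and on 5 between KCl and DXR. For LIN9 the numbers were 3, 2 and 4, and for RB1 2, 2 and 3. RBL2 differed on 2, 4 and 4 days, and was lower after SDS than after DXR on both of the first, on days 0 and 2. Of the 112 differences called between agents, 64 held whichever library of the groups compared was left out.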

How the results depend on the processing

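No result reversed under any alternative. Requiring a log2 fold change of at least 1 left 2 of 11 higher calls of members against untreated cells, 69 of 112 between agents (5 of 21 lower), 19 of 44 between days (11 higher, 8 lower) and 1 of 3 lower against RS; in the lists it left 2 of 21 higher and 1 of 104 lower (E2F, DP and MuvB partners), 29 of 46 higher and 58 of 109 lower (G1 kinases and inhibitors) and 1 of 2 higher (G1/S targets), by construction. A fit of only the groups compared gave 7 higher against untreated cells, 3 calls against RS (3 higher, 0 lower by limma, where 3 were called in the fit of all groups) and 69 partner genes lower. Without a filter 1 member was lower against RS and 27 G1 genes were higher, and with a mean of at least 100, which leaves out E2F8 and LIN9, 5 members were higher against RS. Beyond the construction of each alternative, the cause was not tested.

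Leaving out each library in turn gave 147 to 173 calls against untreated cells (4 to 11 higher, 143 to 162 lower), 106 to 113 between agents, 39 to 47 between days and 9 to 11 against RS (1 to 4 lower). Partner genes ranged from 13 to 22 higher and 68 to 105 lower, and G1 genes from 32 to 47 and 77 to 110; the lowest counts against untreated cells came without untreated library 1, or library 2 for the 13. Where 1 library was left in a group, it was assumed to vary like the others. Calls that rest on a pooled value were carried over unchanged when a DXR day 1 library was left out. Of 657 single results, 640 kept their call under library totals, which moved the median of all genes by at most 0.058, 607 without a filter, 625 under a mean-variance trend and 581 in fits of only the groups compared. Chosen after seeing the data, counts without RS (165 of 216), without KCl days 8 and 16 (158 of 207) and without DXR day 1 (166 of 216) stood beside 173 of 225. No paired analysis was possible because the recovered libraries cannot be tied to the replicate numbers of the labels. Depth limits E2F8 most, at 0 to 107 normalized reads.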
